A study of Mus musculus with 16 samples.

Results

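The genes described here are 35 genes of glycolysis and of the hypoxia response, chosen by name: 17 glycolytic enzymes, 4 glucose and lactate transporters, 13 other targets of the hypoxia-inducible factor (HIF) and the regulator Hif1a. Of the 35 genes, 33 had a probe set annotated to a single symbol. They had 66 such probe sets, and 18 of the 33 genes had more than 1. Outside the array control probe sets, 12393 genes had a probe set annotated to a single symbol, 32 of the 35 among them. Each gene was taken at its brightest probe set by mean log2 intensity over the 16 tumors. Gpi1 and Eno1 had no such probe set and were not measured here. Gapdh was measured only by array control probe sets, so 32 genes entered the tests: 14 enzymes, 4 transporters, 13 HIF targets and Hif1a.

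RNA of 16 tumors was hybridized to 1 array each. The paper names p53R172HΔg/+ K-rasLA1/+ mice as the source of its tumors, and its list of tumors holds mice 1 to 4. Such mice carry 1 mutant copy of p53 and a latent oncogenic K-ras allele that becomes active after a chance recombination in single cells. The matched primary tumors, which serve as controls, thus share both alleles with the metastases. For mice 5 to 7 the sample titles give no genotype. The primary lung adenocarcinomas of 7 mice and 9 metastases of 4 of these mice were profiled. Mouse 1 gave an inguinal, a liver and a body wall subcutaneous metastasis, mouse 2 a liver metastasis, mouse 3 a heart, a mediastinal lymph node and a subcutaneous metastasis, and mouse 4 a mediastinal lymph node and a parietal pleura metastasis. Mice 5 to 7 gave only a primary tumor. All mice were labeled male except mouse 6, ages were not given, no agent was given, and adjacent tissue was dissected away before RNA was extracted. The 9 metastases thus come from 4 mice and are set against 4 primary tumors.

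Glycolysis converts glucose to pyruvate in the cytosol, and lactate dehydrogenase turns pyruvate into lactate, which monocarboxylate transporters carry across the membrane. When oxygen is low, the prolyl hydroxylases of the Egln family no longer mark HIF1A protein for destruction, and the HIF complex binds hypoxia response elements and raises the transcription of most enzymes of the pathway and of further genes for pH control, mitophagy and collagen hydroxylation. HIF1A is controlled mainly as a protein, so the level of Hif1a mRNA is not a measure of HIF activity. In tumors the pathway is also driven by oncogenic Ras and by growth.

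HIF binds hypoxia response elements, so the bases before the annotated start of the members were searched for the core of this element. The windows of 4 members with values described below are shown, 250 bases each, from RefSeq (GRCm38.p6, 5′ to 3′ on the strand of the gene). Capitals mark every ACGTG or GCGTG on either strand, so that CACGT and CACGC are the same cores on the other strand and CACGTG counts on both. Ldha (lactate dehydrogenase A, chr7:46845554-46845803, + strand) and Pgk1 (phosphoglycerate kinase, chrX:106186850-106187099, + strand) are textbook HIF targets, Slc16a3 is the lactate exporter of glycolytic cells (chr11:120948817-120949066, + strand), and Eno2 (neuronal enolase, chr6:124769674-124769923, − strand) is the member with the smallest p between metastases and primary tumors.
Ldha: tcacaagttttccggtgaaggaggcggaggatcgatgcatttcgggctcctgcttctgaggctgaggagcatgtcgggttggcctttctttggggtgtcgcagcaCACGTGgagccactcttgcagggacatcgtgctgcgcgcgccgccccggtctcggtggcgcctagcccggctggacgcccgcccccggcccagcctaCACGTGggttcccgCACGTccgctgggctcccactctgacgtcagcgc
Pgk1: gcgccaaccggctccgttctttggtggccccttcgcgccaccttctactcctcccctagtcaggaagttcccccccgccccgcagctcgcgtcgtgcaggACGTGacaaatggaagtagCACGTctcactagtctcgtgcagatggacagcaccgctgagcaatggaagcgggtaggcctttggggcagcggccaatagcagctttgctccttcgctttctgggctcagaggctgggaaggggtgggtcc
Slc16a3: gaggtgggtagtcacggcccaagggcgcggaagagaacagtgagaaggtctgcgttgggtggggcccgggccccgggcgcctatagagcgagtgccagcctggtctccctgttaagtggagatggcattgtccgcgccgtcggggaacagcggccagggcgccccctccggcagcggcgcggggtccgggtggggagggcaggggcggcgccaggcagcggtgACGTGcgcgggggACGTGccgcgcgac
Eno2: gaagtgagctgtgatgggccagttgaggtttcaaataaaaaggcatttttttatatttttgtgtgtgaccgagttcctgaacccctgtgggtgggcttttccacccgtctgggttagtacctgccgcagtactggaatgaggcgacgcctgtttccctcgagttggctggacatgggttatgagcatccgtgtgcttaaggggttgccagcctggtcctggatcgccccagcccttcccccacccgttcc
The Ldha window held 5 cores, at 3 separate places, and the windows of Pgk1 and Slc16a3 held 2 each. The Eno2 window held none, which says only that these letters are not in this window. Of the 35 genes 33 were in the promoter table (all but Slc2a3 and Ndrg1), and 25 of the 33 (75.8%) had at least 1 core in these 250 bases. The share was 38.6% of 27025 genes in the table and 51.4% of the 9887 genes that the array also measured. At least 2 cores were found in 51.5% of the members and 24.5% of the array genes, with a median GC content of 59.6% and 58.4%. By role, 11 of 17 enzymes, 3 of 3 transporters and 10 of 12 other HIF targets held a core. A match of 5 letters is a description of the sequence and shows no binding.

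**Figure D1:**
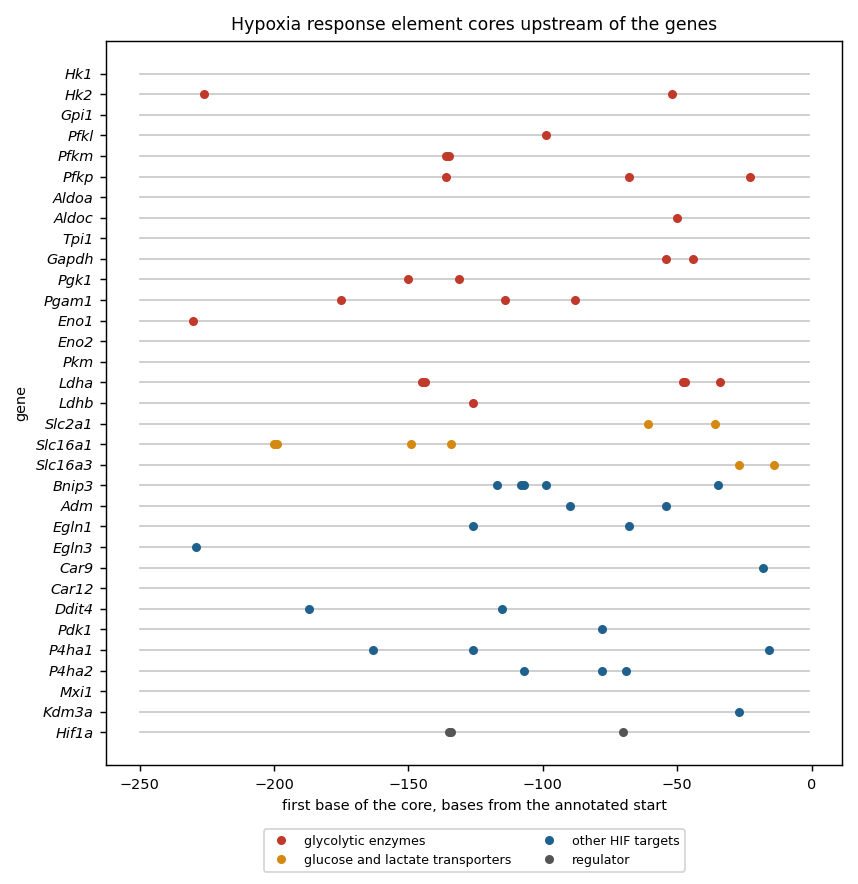
Positions of the cores ACGTG or GCGTG (both strands) in the 250 bases before the annotated start of the 33 members in the promoter table. Each point is 1 core and each grey line 1 gene; 25 of the 33 genes have at least 1 point, and Ldha and Bnip3 have 5 each.

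Comparing metastases with the primary tumor of the same mouse asks whether the program is higher or lower after spread. Across the module no gene passed the test, and the medians of both classes over all 9 metastases lay near 0, with mice on either side. None of the 32 genes reached an adjusted p of 0.05 (limma with the mouse as a block, Benjamini-Hochberg over 22626 probe sets), against 0.354% of all probe sets. Without adjustment, 2 members were higher (Eno2 and Slc2a3) and 1 lower (P4ha2) at p under 0.05, against 4.28% and 7.1% of all probe sets. At an unadjusted p under 0.01 there was 1 member higher (1.14% of all probe sets) and 0 lower (2.84%). The median log2 difference was 0.06 for the 14 glycolytic enzymes (8 above 0, 6 below), 0.03 for the 13 other HIF targets (7 above, 6 below) and 0.12 for the 4 transporters, beside −0.01 for all 12393 genes. By mouse the medians were 0.31 for enzymes and 0.30 for HIF targets in mouse 1, −0.07 and −0.41 in mouse 2, 0.03 and −0.07 in mouse 3, and −0.14 and −0.36 in mouse 4. Without mouse 1 the medians turned to −0.13 and −0.27, and without mouse 4 they were 0.19 and 0.15. The median of the HIF targets also lay below 0 without the inguinal (−0.02) or liver (−0.06) metastasis of mouse 1 or the subcutaneous one of mouse 3 (−0.03), with dim probe sets left out (−0.0081) and as the mean over probe sets (−0.04). The enzyme median was 0.0037 as the mean over probe sets. With all 16 tumors and the mouse as a random block, again 0 members passed, against 1.24% of probe sets, and 3 had an unadjusted p under 0.05, against 12.4%. The primary tumors of mice 5 to 7 also enter that fit.

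**Figure D2:**
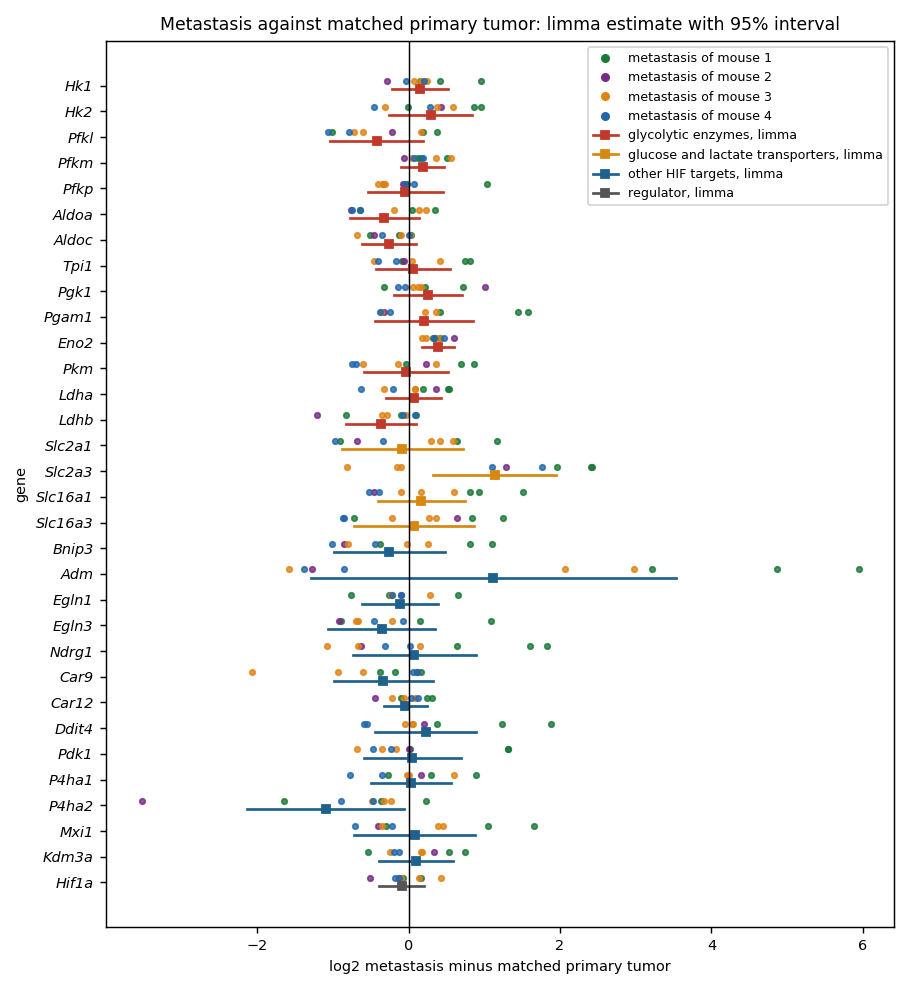
Log2 metastasis minus matched primary tumor for the 32 members tested. Squares and bars are the limma estimate and its 95% interval from 13 tumors, and small points are the 9 metastases, colored by mouse. Most intervals cross 0, and Slc2a3 shows 6 points above and the 3 metastases of mouse 3 below 0.

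Among the enzymes, Eno2 was the only gene above the matched primary tumor in all 9 metastases (1 of 32 members, against 1.81% of all probe sets). No member was below it in all 9 (0 of 32, against 3.6%). Eno2 makes the gamma subunit of enolase, the enzyme that forms phosphoenolpyruvate. Its intensity was 50.6, 52.7, 65.8 and 53.3 in the primary tumors of mice 1 to 4. In the metastases it was 63.0 (inguinal), 64.2 (liver) and 67.0 (body wall) in mouse 1, 79.9 in mouse 2, 74.2 (heart), 77.0 (lymph node) and 86.8 (subcutaneous) in mouse 3, and 73.5 (lymph node) and 67.2 (pleura) in mouse 4. The gap is small and the signal dim, and the primary tumors of mice 5 to 7 (72.3, 50.5 and 60.4) overlapped the metastases. The log2 difference was 0.39 (SE 0.09, limma adjusted p = 0.1381). Without mouse 1 or without mouse 4, 0 members had a p under 0.01, and without mouse 3 or its heart metastasis 2 did. Eno2 passed the adjusted threshold under 3 settings given in the closing section.

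The other 3 enzymes with the smallest p had lower mean intensities in metastases, and none passed. Ldhb makes the H subunit of lactate dehydrogenase. Its levels were 363, 562, 268 and 365 in the primary tumors of mice 1 to 4 and 205 to 387 (median 262) in the metastases, with 7 of 9 below the matched primary tumor. Its log2 difference was −0.37 (SE 0.21, limma adjusted p = 0.5632), and −0.17 without the liver metastasis of mouse 2. The groups overlapped, and its 4 probe sets did not share a sign: the second brightest gave 0.04.

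Aldoc and Aldoa make aldolases, which split fructose bisphosphate. Aldoc was at 209, 189, 252 and 140 in the 4 matched primary tumors and at 110 to 256 (median 157) in metastases, with a log2 difference of −0.26 (SE 0.16, limma adjusted p = 0.6007). Aldoa was at 3091, 3248, 2987 and 2628 in the primary tumors and at 1567 to 3928 (median 2601) in metastases, with a log2 difference of −0.33 (SE 0.20, limma adjusted p = 0.6078). Both ranges of metastases held the primary tumors between them.

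Ldha, the M subunit that favors lactate, was at 2418, 2221, 2972 and 2363 in the matched primary tumors. The metastases lay at 1532 to 3489 (median 2861), 6 of 9 above their primary tumor. The log2 difference was 0.06 (SE 0.16, 95% interval −0.30 to 0.43, limma adjusted p = 0.9218). The spread among metastases was wider than the gap between the groups.

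Gapdh, which forms bisphosphoglycerate and is often used as a constant reference, was at 6030, 5087, 6716 and 5351 in the matched primary tumors on its 3′ control probe set. The metastases lay at 2635 to 6529 (median 5708), with 3 of 9 above their primary tumor and the 2 metastases of mouse 4 at 2635 and 3233. The unmatched primary tumors of mice 5 to 7 were at 2575, 3907 and 2688, below all matched primary tumors. Its values spanned 2.61-fold over the 16 tumors. No adjusted p is given for it because control probe sets were outside the tests.

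The remaining enzymes had log2 differences between −0.43 and 0.29. They were the hexokinases Hk1 (0.15) and Hk2 (0.29), which trap glucose, the phosphofructokinases Pfkl (−0.43), Pfkm (0.18) and Pfkp (−0.05), triosephosphate isomerase Tpi1 (0.06), Pgk1 (0.26), the mutase Pgam1 (0.20) and pyruvate kinase Pkm (−0.03). The lowest adjusted p among these was 0.6246, that of Pfkl. The widest range over the 16 tumors was that of Pkm, 634 to 4410, a 6.95-fold span. Probe sets of Aldoa, Tpi1 and Pgk1 used here are of a kind whose probes can also bind related sequences, so their levels may include other transcripts. The same limit holds for the probe sets of Slc2a3 and Ndrg1 described below.

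Of the transporters, Slc2a3 had the widest range of any member except Adm. Slc2a3 makes GLUT3, a high-affinity glucose transporter, and Slc2a1 makes GLUT1, the widely expressed one. Slc2a3 had intensities of 381, 722, 87.3 and 347 in the matched primary tumors of mice 1 to 4. In metastases it was at 2029 (inguinal), 1488 (liver) and 2047 (body wall) in mouse 1, 1761 in mouse 2, 1176 (lymph node) and 745 (pleura) in mouse 4, but 49.4 (heart), 78.3 (lymph node) and 81.3 (subcutaneous) in mouse 3. The unmatched primary tumors of mice 5 to 7 were at 252, 234 and 239.

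The 4 tumors of mouse 3 thus held the 4 lowest values of Slc2a3, and the 6 metastases of the other mice held the 6 highest. The log2 difference was 1.14 (SE 0.36, 95% interval 0.33 to 1.95, limma adjusted p = 0.2563). It was 1.72 without mouse 3 and 0.69 without mouse 1, and neither fit passed. Its log2 ratio to the matched primary tumor was between 1.10 and 2.42 in mice 1, 2 and 4 and between −0.82 and −0.10 in mouse 3. A test of whether the difference varied between mice (limma F-test of mouse by tissue) gave an adjusted p of 0.5342. On the brightest probe sets, Slc2a3 was the only member at an unadjusted p under 0.05 in this test. The other 3 probe sets of Slc2a3 gave log2 differences of 1.22, 0.56 and 0.90, with 8, 7 and 9 of 9 metastases higher, so the values below 0 in mouse 3 were not seen on every probe set.

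Slc2a1 was ordered otherwise in mice 2, 3 and 4, while in mouse 1 the inguinal and liver metastases were above their primary tumor in both genes. Its intensities were 124, 177, 241 and 164 in the matched primary tumors and 66.5 (body wall, mouse 1) to 363 (subcutaneous, mouse 3) in metastases, with a median of 194. The inguinal and liver metastases of mouse 1 were at 194 and 280, with log2 ratios of 0.64 and 1.17. All 3 metastases of mouse 3 were above their primary tumor, at 296, 321 and 363, and those of mice 2 and 4 were below it, at 110, 129 and 83.6. Over the 16 tumors log2 Slc2a1 and Slc2a3 had r = −0.65, a description over tumors that share mice. The log2 difference was −0.09 (SE 0.36, limma adjusted p = 0.9571).

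**Figure D3:**
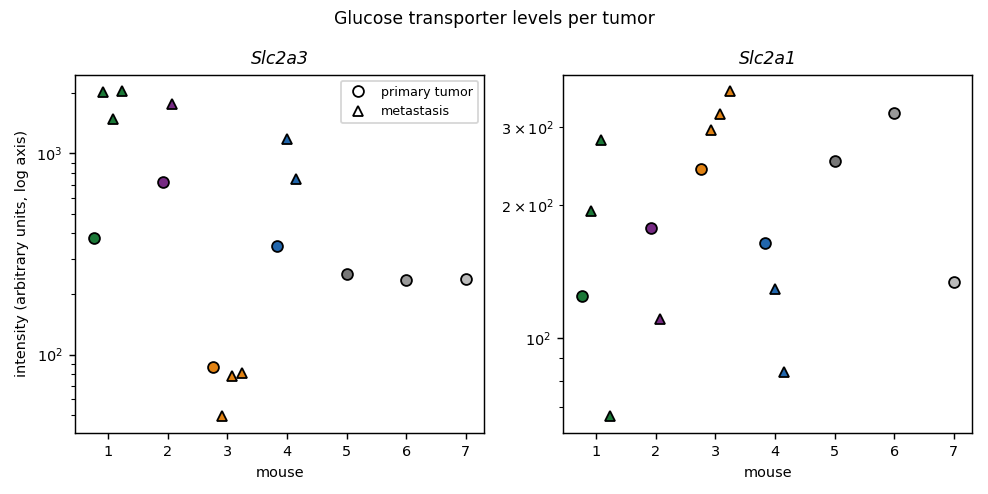
Intensity of Slc2a3 and Slc2a1 in each tumor (log axis, arbitrary units), by mouse, with circles for primary tumors and triangles for metastases. In mouse 3 all 4 tumors are at or below 87.3 for Slc2a3 and at or above 241 for Slc2a1, and metastases of mice 1, 2 and 4 are at 745 to 2047 for Slc2a3.

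The lactate transporters did not pass either. Slc16a1 (MCT1) was at 234, 283, 189 and 297 in the matched primary tumors and at 175 to 668 (median 226) in metastases, and its 3 highest values were the 3 metastases of mouse 1 (668, 446 and 410). Its log2 difference was 0.17 (SE 0.26, limma adjusted p = 0.8647). Slc16a3 (MCT4), whose window is printed above, was at 85.2, 41.8, 74.4 and 62.3 in the primary tumors and at 34.1 to 202 (median 64.9) in metastases. The log2 difference of Slc16a3 was 0.07 (SE 0.35, limma adjusted p = 0.9676). Its 2 highest values were the liver and inguinal metastases of mouse 1, at 202 and 152.

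Among the other HIF targets, P4ha2 had the smallest p. It makes a catalytic subunit of the prolyl hydroxylase that stabilizes collagen. Its level was 78.2, 104, 123 and 118 in the matched primary tumors. In metastases it was at 60.6 (inguinal), 91.5 (liver) and 25.03 (body wall) in mouse 1, 9.01 in mouse 2, 105 (heart), 88.5 (lymph node) and 98.1 (subcutaneous) in mouse 3, and 85.2 (lymph node) and 63.2 (pleura) in mouse 4. Only the liver metastasis of mouse 1 was above its primary tumor, and the liver metastasis of mouse 2 and the body wall metastasis of mouse 1 lay far below the rest. The log2 difference was −1.10 (SE 0.46, 95% interval −2.13 to −0.06, limma adjusted p = 0.4041), and it was −0.54 without the liver metastasis of mouse 2, its lowest value.

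Car9, a carbonic anhydrase at the cell surface that takes part in pH control and is a widely used hypoxia marker, was at 104, 86.7, 198 and 103 in the matched primary tumors. The metastases lay at 47.2 to 131 (median 103), 4 of 9 above their primary tumor. The log2 difference was −0.34 (SE 0.29, limma adjusted p = 0.7323), and −0.20 without the heart metastasis of mouse 3.

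Egln3, an oxygen-sensing prolyl hydroxylase that is itself induced by HIF, was at 193, 242, 395 and 163 in the primary tumors and 104 to 412 (median 214) in metastases. Its log2 difference was −0.36 (SE 0.32, limma adjusted p = 0.7369), −0.23 without the liver metastasis of mouse 2 and −0.09 with all 16 tumors. Adm, the vasodilator peptide adrenomedullin, was near the lower limit of the values: 1.41, 2.74, 5.32 and 2.62 in the primary tumors and 1.00 to 86.9 (median 13.1) in metastases. Its log2 difference was 1.12 (SE 1.08, limma adjusted p = 0.7633) and rests on primary tumors near the floor, since it was 0.32 with the floor at the 25th percentile. The 5 metastases above their primary tumor were the 3 of mouse 1, at 41.1, 86.9 and 13.1, and the lymph node and subcutaneous tumors of mouse 3, at 41.7 and 22.2.

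The remaining HIF targets had log2 differences between −0.25 and 0.23. They were Bnip3 (mitophagy, −0.25), Egln1 (the main oxygen sensor, −0.11), Ndrg1 (a stress gene, 0.08), Car12 (−0.04), Ddit4 (an inhibitor of mTORC1, 0.23), Pdk1 (which blocks pyruvate dehydrogenase, 0.05), P4ha1 (0.03), Mxi1 (a Myc antagonist, 0.08) and Kdm3a (a histone demethylase, 0.10). The regulator Hif1a was at 486, 549, 753 and 558 in the matched primary tumors. It was at 386 to 1013 (median 509) in metastases, with a log2 difference of −0.09 (SE 0.13, limma adjusted p = 0.8516), and its 4 highest values were the 3 metastases of mouse 3 and their primary tumor, with the heart metastasis at 1013. Among less bright probe sets of Hif1a, 2 gave log2 differences of 0.25 and 0.26.

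Tumor by tumor, the module differed widely, and the liver metastasis of mouse 1 stood out. It held the highest of the 16 values for 17 of the 32 members (53.1%): 7 enzymes, 1 transporter and 9 of the 13 HIF targets. The same tumor held the highest value of 4.53% of all genes. In it 30 of 32 members were above the primary tumor of mouse 1, with 12 of them more than 2-fold above, against 47.8% and 5.41% of all genes. The median log2 ratio there was 0.63 for enzymes and 1.09 for HIF targets. The inguinal metastasis of the same mouse came next, with 25 of 32 members above (78.1%, against 55.9% of all genes) and medians of 0.36 and 0.53. The body wall metastasis of the same mouse had 13 of 32 above (40.6%, against 45.5%), with medians of −0.02 and −0.27.

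Individual genes show the size. Ndrg1 was at 1372 in the liver, 1171 in the inguinal and 599 in the body wall metastasis of mouse 1, with 385 in its primary tumor, and at 156 to 368 in the other 6 metastases. Ddit4 was at 920, 587 and 325 in these 3 metastases, with 250 in the primary tumor. Pgam1 was at 1345, 1222 and 597, with 449 in the primary tumor. The inguinal and liver tumors were thus well above and the body wall tumor closer to the primary tumor, although all 3 came from the same mouse. Ndrg1, Ddit4 and Pgam1 were chosen as examples after their values were seen.

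The liver metastasis of mouse 2 did not share the pattern of the liver metastasis of mouse 1: 12 of its 32 members were above the primary tumor (37.5%, against 48.2% of all genes), with medians of −0.07 for enzymes and −0.41 for HIF targets. In mouse 3, 19 of 32 members were above in the heart tumor (59.4%, against 44.4%), 22 in the subcutaneous tumor (68.8%, against 49.6%) and 7 in the lymph node tumor (21.9%, against 42.8%). In mouse 4, 9 were above in the lymph node tumor (28.1%, against 48.3%) and 7 in the pleural tumor (21.9%, against 43.9%), with enzyme medians of −0.07 and −0.37. At the low end, the pleural metastasis of mouse 4 and the primary tumor of mouse 7 each held the lowest value of 7 members (21.9%), against 3.49% and 8.76% of all genes.

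The summed level of 7 markers of alveolar type 2 cells of the lung was 16747 to 44608 in primary tumors. In metastases it was 982 to 26362, and it was lowest in the 3 metastases of mouse 3, at 982 to 2337. All 7 had estimates below 0 in metastases, with a median log2 difference of −2.27, and Nkx2-1 was as low as 1.07. The 5 club cell markers were also all below 0 (median −1.78), with sums of 1852 to 5084 in primary tumors and 312 to 812 in metastases. The 6 fibroblast markers, 5 of them above 0 (median 0.93), summed to 1286 to 5722 in primary tumors. They summed to 11627, 15396 and 17001 in the metastases of mouse 3 and to 8488 in the liver metastasis of mouse 1. Mouse 3, whose tumors held the lowest Slc2a3 and the highest Hif1a and had high Pgk1, thus also stood apart in these lists. In its lymph node metastasis the sums of 4 neutrophil markers (3551) and 6 macrophage markers (3938) were the highest of the 16, against 566 to 711 and 1626 to 2361 in primary tumors. The sum of 4 fat cell markers was highest in the body wall metastasis of mouse 1, at 2367, against 189 to 436. Markers of other tissues moved with some of these tumors. The summed level of 9 liver markers was 11135 in the liver metastasis of mouse 1, 8113 in the inguinal, 6098 in the body wall metastasis of mouse 1 and 5513 in the liver metastasis of mouse 2, against 652 to 1858 in the 7 primary tumors. Their median log2 ratios to the matched primary tumor were 3.85, 1.69, 0.43 and 1.88 in the same order. By this measure the body wall tumor was the lowest of these, although its sum was above that of mouse 2. The sum of 10 skeletal muscle markers was 2168 in the inguinal metastasis of mouse 1, where Pfkm, the muscle phosphofructokinase, had its highest value of 365, against 449 to 564 in primary tumors. The sum of 8 heart muscle markers was 5254 in the heart metastasis, against 226 to 299 in primary tumors, and Pkm had its highest value of 4410 there. All 9 proliferation markers had higher estimates in metastases, with a median log2 difference of 1.31, beside 0.06 for the enzymes. The part of these tissues in the values of the members was not tested, and fewer cells of a type and less RNA per cell cannot be told apart in RNA of whole tumors. The 3′ over 5′ signal ratio of Gapdh lay between 1.00 and 1.41 in the 16 tumors, and that of Actb between 1.27 and 2.12.

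**Figure D4:**
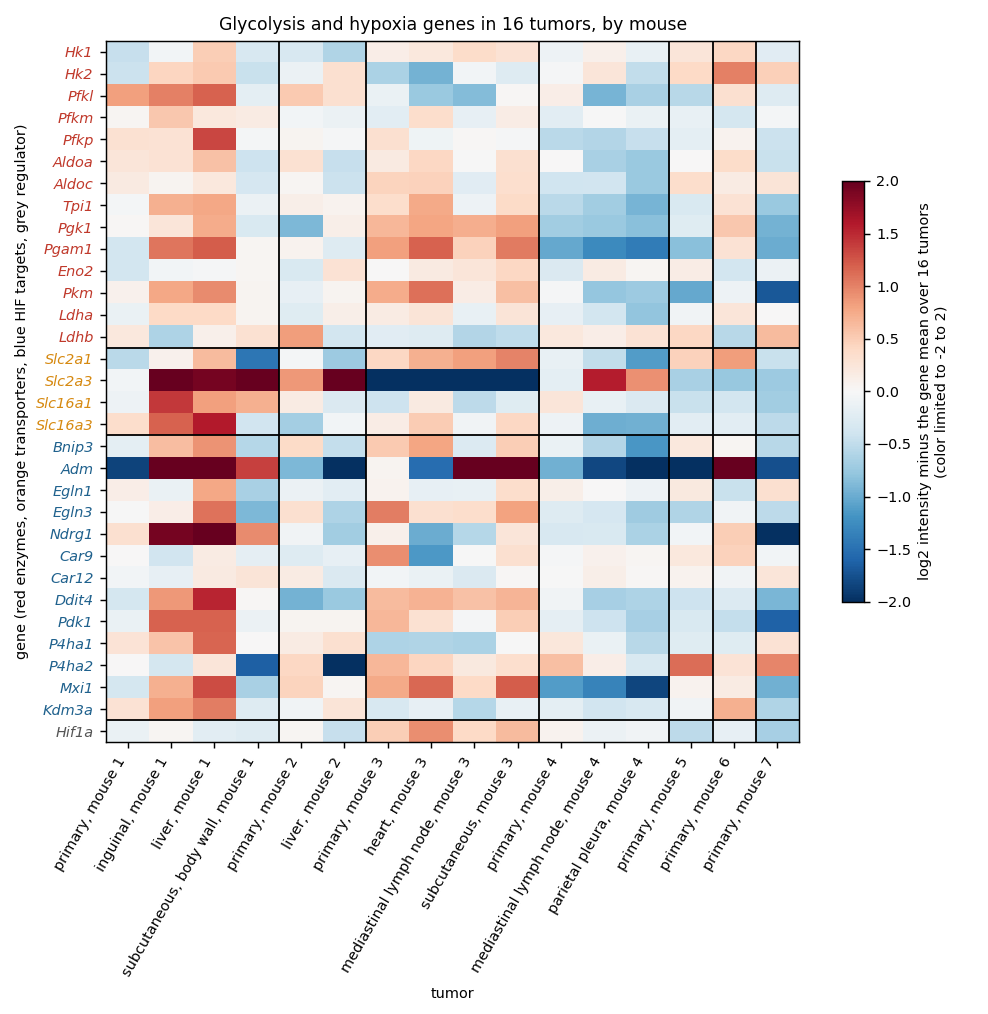
Log2 intensity of the 32 members minus the mean of each gene over 16 tumors, with tumors grouped by mouse and the color scale limited to −2 to 2. The liver metastasis of mouse 1 is the darkest red column across both classes, with 17 of 32 highest values, and Slc2a3 is dark blue in all 4 tumors of mouse 3.

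**Figure D5:**
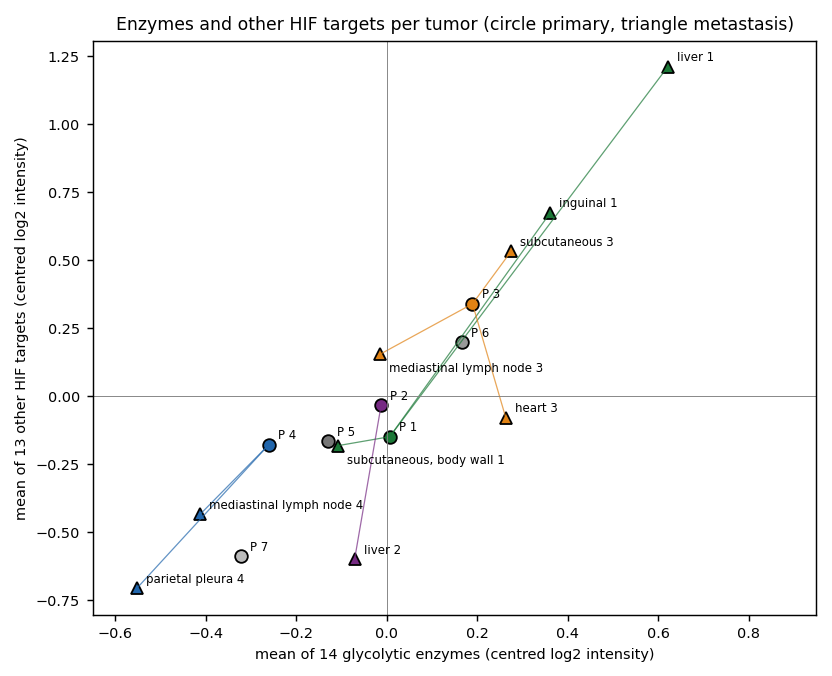
Mean centred log2 intensity of 14 glycolytic enzymes (horizontal) and 13 other HIF targets (vertical) per tumor, with lines from each matched primary tumor to its metastases and P for primary tumors. The liver metastasis of mouse 1 is at 0.62 and 1.21, the pleural metastasis of mouse 4 at −0.55 and −0.71 and the heart metastasis of mouse 3 at 0.26 and −0.08. The HIF target means include Adm, a gene near the lower limit of the values.

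Enzymes and other HIF targets were compared by their means of centred log2 intensity. They ran from −0.55 to 0.62 for the enzymes and from −0.71 to 1.21 for the HIF targets, and both had the pleural metastasis of mouse 4 lowest and the liver metastasis of mouse 1 highest. The heart metastasis of mouse 3 was at 0.26 for enzymes and −0.08 for HIF targets, and the liver metastasis of mouse 2 at −0.07 and −0.60. The HIF target means include Adm, a gene near the lower limit of the values. Its centred value was −1.52 in this heart tumor, −2.17 in this liver tumor and 4.09 in the liver metastasis of mouse 1. P4ha2 was at −3.11 in the liver metastasis of mouse 2. Means without these 2 genes were not computed, so the gaps between the classes may rest on them. Over the 16 tumors the median r between log2 intensities was 0.32 for the 91 pairs of enzymes, 0.30 for the 78 pairs of HIF targets and 0.32 for the 182 pairs across the classes. The median across the classes was thus like those within them. No median was computed for pairs of other genes, so these values do not set the members apart from other genes. The range was wide, from −0.79 for Ldhb and Pgk1 to 0.95 for Pgam1 and Tpi1, and Mxi1 reached 0.93 with Pgam1 and Aldoa 0.91 with Bnip3. Tumors of 1 mouse and arrays of 1 normalization are shared by these points.

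Levels also differed between mice. After the tissue term, 4 of 32 members passed an F-test between mice 1 to 4 (limma), against 5.09% of all probe sets: Slc2a3 (adjusted p = 0.003637), Pgk1 (0.02965), Pgam1 (0.03255) and Hif1a (0.04118). Of the other probe sets, 2 of the 3 of Slc2a3 passed, with 0 of 2 for Pgk1 and 0 of 3 for Hif1a. Pgk1 was at 3314 to 3697 in the 4 tumors of mouse 3 and at 1166 to 1290 in the 3 tumors of mouse 4. Pgam1 was at 799 to 1319 in mouse 3 and 220 to 285 in mouse 4. For Hif1a, mouse 3 lay at 703 to 1013 and the other 9 tumors at 386 to 558, with no overlap. Without the 4 tumors of mouse 3, 0 of the 32 passed, with an adjusted p of 0.3843 for Slc2a3. Without mouse 4, or without any single metastasis of mouse 3 or 4 or the inguinal metastasis of mouse 1, 1 or 2 members passed. Slc2a3 passed in every fit that left out a single metastasis, with an adjusted p of 0.007422 to 0.02048. The test takes tumors of 1 mouse as independent, and it was added after the data had been seen. For the metastasis minus primary difference, none of the 32 passed the F-test of mouse by tissue (0 past the adjusted threshold, against 0.124% of probe sets). On the brightest probe sets there were 0 at an unadjusted p under 0.01, against 2.04%, and 1 at p under 0.05, against 7.12%. The other 3 probe sets of Ldhb had an unadjusted p of 0.001787, 0.04341 and 0.04396 in this F-test. Their adjusted p was 0.2504, 0.6942 and 0.6961. The spread in that test comes only from metastases of the same mouse, and mouse 2 gave 1. It therefore cannot show that the differences were equal between mice.

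The primary tumors of mice 5 to 7, which had no profiled metastasis, were compared with those of mice 1 to 4. No member passed in either direction (limma, against 0.685% of probe sets lower and 0.336% higher), and 5 had an unadjusted p under 0.05, against 20.6% of probe sets, a larger share than among the members. Hk2 was at 603, 920 and 637 in mice 5 to 7 and at 339, 422, 294 and 448 in mice 1 to 4, with no overlap (log2 difference 0.93, SE 0.22, adjusted p = 0.09136). Mouse 6, the only female, held the 920, and without it the difference was 0.74 (SE 0.21, adjusted p = 0.1814). Hk2 was the only member above in all 3 (7.12% of all probe sets). Pdk1 (57.1 to 142 against 154 to 276) and Hif1a (338 to 476 against 486 to 753) were the 2 tested members below in all 3, against 12.9% of all probe sets. Gapdh, which was outside the tests, was also below in all 3 (2575 to 3907 against 5087 to 6716). Pkm was at 1003, 1908 and 634 in mice 5 to 7 and at 1817 to 3435 in mice 1 to 4 (log2 difference −1.10, SE 0.40, adjusted p = 0.1953).

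The wider pathway gave a similar picture. Of 27 further hypoxia-induced genes 17 had estimates above 0, with a median log2 difference of 0.11 and 0 past the adjusted threshold. Insig2, which holds back sterol synthesis, had the smallest p of these: it was at 149 to 242 in the matched primary tumors and 118 to 174 in metastases, 0 of 9 above (log2 difference −0.51, SE 0.13, limma adjusted p = 0.1547). Of 7 HIF subunits and oxygen sensors 4 were below 0, and Epas1, which encodes HIF2A, was at 155 to 326 in the primary tumors and 114 to 211 in metastases (log2 difference −0.49, limma adjusted p = 0.3458).

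Routes that branch from glycolysis lay mostly below 0. Of 14 genes of gluconeogenesis and glycogen 12 had estimates below 0 (median −0.20), and of 7 pentose phosphate genes 6 (median −0.30), with 0 past the adjusted threshold in both. These are values of the brightest probe set. For Pck1 the paper lists another, dimmer probe set (mean log2 1.84 against 6.12) among the genes most increased in metastases. Of 12 other genes of glycolysis and its regulation 9 were below 0 (median −0.11), and of 8 genes of the pyruvate dehydrogenase complex 5 (median −0.07). Over all 12393 genes 6425 estimates were below 0. Among the pentose phosphate genes Taldo1 (transaldolase) had a log2 difference of −0.67 (SE 0.21, limma adjusted p = 0.2527) and Tkt (transketolase) one of 0.52 (SE 0.25, limma adjusted p = 0.4763). Pygl, the liver glycogen phosphorylase, had one of −0.57 (SE 0.21, limma adjusted p = 0.3303).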

How the data were processed

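The authors hybridized biotin-labeled RNA of each tumor to an Affymetrix Mouse 430A 2.0 array and computed model-based values in dChip from the perfect match minus mismatch signal, with invariant set normalization. The table they deposited holds these intensity values on a linear scale for 22690 probe sets, with array medians between 75.0 and 85.4. The number of arrays limits the precision.

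Intensities under 1 were raised to 1 (3.70% of values were at or under 1) and log2 values taken. The 64 control probe sets were left out of the tests. Probe sets were named from the platform annotation kept with the series, in which 20380 carry 1 symbol, 691 several and 1555 none. The test was limma 3.58.1 (R 4.3.3) over 13 tumors with the mouse as a block, with 8 residual degrees of freedom and Benjamini-Hochberg adjustment over 22626 probe sets. It takes metastases of 1 mouse as separate replicates. The mouse number in the labels pairs the samples, since 1 animal gave both tumors of a pair. Deviations of log2 values from the mean of each tissue correlated between −0.00 and 0.40 with the own primary tumor, which was the best of 4 for 6 of 9 metastases. The fit of all 16 tumors took the mouse as a random effect (consensus correlation 0.238). The fits were also run on simulated data with noise independent between tumors. Those runs do not check the effect of metastases sharing a mouse. Class medians, tumor means and correlations are descriptions with no test.

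Values are given in every tumor for up to 4 members of each class with the smallest p, and for Hif1a, Ldha and Gapdh. Genes of other lists are named at p under 0.01 or as at most 3 of a list. The members and lists were chosen with earlier results of these data known. Alternatives were a floor at the 10th (5.54) or 25th (24.3) percentile, quantile normalization, median centring, dim probe sets left out, a variance trend with a robust prior, 1 mean ratio per mouse, the methods' paired t-test, the mean over probe sets, no block, and each mouse or metastasis left out. The F-test between mice and the comparison of primary tumors were added after the data had been seen. Promoter windows are the 250 bases before the most upstream start of each gene in RefSeq, searched by exact match.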

Additional observations from a re-analysis of the deposited data

Results flagged for a closer look

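Of 66 groups of 1 member (its 9 metastases or its 7 primary tumors), 3 had a tumor that lay outside the others by a gap test on the intensities, which chance gives in about 1 in 20 groups. Pfkp, a phosphofructokinase, was at 492.159 in the liver metastasis of mouse 1, where the next highest metastasis was at 238.301. Ndrg1 was at 54.637 in the primary tumor of mouse 7, where the next lowest primary tumor was at 248.186. Car9 was at 47.182 in the heart metastasis of mouse 3, where the next lowest metastasis was at 79.894.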

How the results depend on the processing

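Over 24 alternatives, 311 of 335 values for single members kept their direction and their side of the adjusted threshold. Eno2 passed with the floor at the 10th percentile (0.39, adjusted p = 0.04998) and at the 25th (0.39, adjusted p = 0.04139) and by the methods' paired t-test over 9 ratios, which takes metastases of 1 mouse as independent (0.36, adjusted p = 0.00891). The members past the adjusted threshold were then 1 instead of 0. Members higher at p under 0.01 numbered 2 with quantile normalization, median centring, dim probe sets left out, the robust prior or the mean over probe sets, 0 with 1 mean ratio per mouse, and 0 to 2 when a mouse or metastasis was left out. Members that differed between mice numbered 9 with dim probe sets left out and 7 with the robust prior, and 0 to 5 when a mouse or metastasis was left out.

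Among 21 reversals, all of values that did not pass the test, Slc2a1 was 0.021 with no replicate block (mouse not paired) and 0.023 by the t-test, and Hif1a was 0.13 with all 16 tumors and 0.10 as the mean over probe sets. When a mouse or metastasis was left out, Slc2a1 ranged from −0.29 to 0.10, Hif1a from −0.19 to 0.0027, Ldha from −0.071 to 0.23, Slc16a1 from −0.19 to 0.37, Slc16a3 from −0.081 to 0.38, Adm from −0.27 to 1.87 and Car9 from −0.48 to 0.0018. Mouse 1 gave the lowest value of Ldha, Slc16a1, Slc16a3 and Adm when left out, and mouse 3 the highest of Car9. The causes were not tested. The fit without the block changed no call among the members.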
